A study of Mus musculus with 6 samples.

Results

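The genes described here are 36 genes of macrophages and other myeloid cells, read in bulk mammary tumours of mice. They were taken from a fixed list of symbols, and every probe set whose platform annotation gave exactly 1 of those symbols was kept. That gave 51 probe sets for all 36 genes, of 22626 probe sets on the array that are not Affymetrix controls, and 7 of the genes had more than 1 probe set. A probe set is a group of short probes for 1 transcript. Where 1 value per gene was needed, the probe set with the highest mean over the 6 arrays was used.

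Macrophages are phagocytes that arise from monocytes or settle in tissues early in life, and the transcription factor PU.1 (gene Spi1) and the receptor of the growth factor CSF-1 (gene Csf1r) set up and maintain the lineage. In mammary tumours driven by the polyomavirus middle T antigen, macrophages are a common stromal cell, and they are well known for their part in the growth of vessels and in the spread of tumour cells. Their products include Fc receptors that bind antibody, scavenger receptors, lysosomal proteases and the arginine-degrading enzyme arginase 1. Several of these genes are also used by other cells: Lgals3 by epithelium, Apoe by fat cells, and Ptprc and Cd52 by leukocytes in general.

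RNA came from tumours of female F1 mice that all had a PyMT parent, so the cross with a PyMT mouse is shared by both groups. The other parent was AKR/J for 3 samples, here the AKR cross or AKR F1 tumours, and DBA/2J for the other 3, here the DBA cross or DBA F1 tumours. The labels name no drug treatment, and age, tumour stage, the strain of the PyMT parent and the promoter of the transgene are not given in the sources used here. The comparison is between these genotypes, without treatment. Each sample was hybridised to 1 array, and replicate numbers only name the samples. The labels do not say that samples came from separate animals, so the p-values cover the spread among these 6 samples alone, which may be technical.

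Values are log2 values as deposited, and array medians ran from 7.52 to 7.57. The number of arrays, 3 in each cross, limits the precision. Markers of luminal epithelium, the main cell of these tumours, had array means from 10.55 to 11.17, so the label of mammary tumour fitted its markers on all arrays. The SD of all values was 1.76 on AKR replicate 2 and 1.90 to 2.02 on the other arrays. DBA replicate 1 had the highest array means of skeletal muscle markers (11.56, against 6.52 to 9.79) and adipocyte markers (7.82, against 5.83 to 6.84). In bulk tumour RNA, fewer cells of a type and less RNA per cell cannot be told apart.

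The promoters of myeloid genes are known to carry binding sites of PU.1, whose core is GAGGAA, and promoter sequences are shown because the gene of PU.1 is itself among the 36. RefSeq promoter windows of mouse assembly GRCm38.p6, which hold 250 bases before and 50 after a transcript start, were matched by symbol for 27 of the 36 genes. GAGGAA on either strand was found in the windows of 17 of these 27 genes (63.0%), against 31.3% of the 27025 genes in the table. Within the 100 bases just before the start it was found in 11 of 27 genes, or 40.7%, against 11.2% of all genes. The extended form GAGGAAGT was found in 3 of 27 genes (11.1%, against 3.69%), namely Cd53, Ctss and Mmp12, where it includes the shorter core. The members' windows held the AP-1 motif TGANTCA in 18.5% (all genes 8.97%), the C/EBP motif TTGCNNAA in 14.8% (all genes 12.2%), the interferon-stimulated response element in 7.41% (all genes 3.99%) and the E-box CACGTG in 0 genes (all genes 8.09%), again on both strands. A match is a description of letters, and binding was not measured here.

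The 100 bases before the start are given for 5 genes whose printed window lies outside the RefSeq gene, 5′ to 3′ on the gene's strand, with the core in capitals (TTCCTC is the core read from the other strand). They were picked, with values in view, to show the core before genes with different readings: Cd53 and Mrc1 were lowest on replicate 2 of each cross, Fcgr1 and Itgam were dim, and Trem2 lay higher in AKR F1 tumours. Cd53 is at chr3:106790150-106790249 (minus strand), Mrc1 at chr2:14229314-14229413 (plus), Fcgr1 at chr3:96293970-96294069 (minus), Itgam at chr7:128062540-128062639 (plus) and Trem2 at chr17:48346301-48346400 (plus).
Cd53: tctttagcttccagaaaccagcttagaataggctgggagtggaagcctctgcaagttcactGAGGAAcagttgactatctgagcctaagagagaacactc
Mrc1: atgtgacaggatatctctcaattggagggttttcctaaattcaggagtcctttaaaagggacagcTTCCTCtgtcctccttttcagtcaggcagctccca
Fcgr1: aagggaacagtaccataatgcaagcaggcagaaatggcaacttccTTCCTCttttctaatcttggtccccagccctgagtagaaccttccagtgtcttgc
Itgam: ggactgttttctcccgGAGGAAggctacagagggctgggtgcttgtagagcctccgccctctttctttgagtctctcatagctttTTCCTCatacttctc
Trem2: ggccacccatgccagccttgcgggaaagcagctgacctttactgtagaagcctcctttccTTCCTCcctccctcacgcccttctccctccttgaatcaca

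For most macrophage and myeloid genes the gap between the crosses was smaller than the wider of the within-cross ranges, as it was for most probe sets on the array. Arginase 1 was the member with the widest gap, 3.42-fold higher by mean in DBA F1 tumours, and Gpnmb had the widest gap in the other direction, 1.57-fold higher by mean in AKR F1 tumours. No member passed: 0 of 51 probe sets had an adjusted p under 0.05 by limma, and the smallest adjusted p was 0.113, against 0.0972% of all probe sets called. At an unadjusted p under 0.05 there were 10 of 51 (19.6%), 5 in each direction, against 26.1% of all probe sets. The values of the crosses did not overlap at 11 of 51 member probe sets (21.6%), against 39.2% of all probe sets. Of these 11, 7 were higher in AKR (background 23.4%) and 4 higher in DBA F1 tumours (background 15.8%). The difference was smaller than the wider of the within-cross ranges at 46 of 51 probe sets, or 90.2%, against 80.6% of all. A range of single arrays and a difference of means are unlike measures, so only these shares can be compared. Failing the threshold does not show that levels were equal, and the 95% intervals given below state what sizes of difference the data allow.

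By mean, 33 of the 51 probe sets (64.7%) lay higher in the DBA cross, against 45.4% of all probe sets. Among probe sets brighter than the median it was 25 of 35 members (71.4%), against 62.9% of all. By gene the count was 25 of 36 (69.4%), against 45.2% of all genes. Among genes brighter than the median it was 20 of 26 members (76.9%), against 61.2% of all such genes. Among dimmer members it was 5 of 10, and 27.9% of all dimmer probe sets lay higher in the DBA cross. With quantile normalization 28 of 51 member probe sets (54.9%) lay higher in the DBA cross, against 45.0% of all probe sets, and by gene it was 21 of 36 (58.3%). Shares by brightness were not taken in that setting, so these counts show no excess beyond that of bright probe sets. The median difference of the 51 probe sets (AKR minus DBA, as for all differences here) was -0.13, against 0.05 for all probe sets. Brightness moved with this: among probe sets brighter than the array's median probe set, the 35 members had a median of -0.29 and all 11313 had -0.14. With AKR replicate 2 left out the members' median was -0.008, with DBA replicate 3 left out -0.01, and with DBA replicate 2 left out -0.35. Leaving out both AKR replicate 2 and DBA replicate 1 turned it to 0.03.

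**Figure D1:**
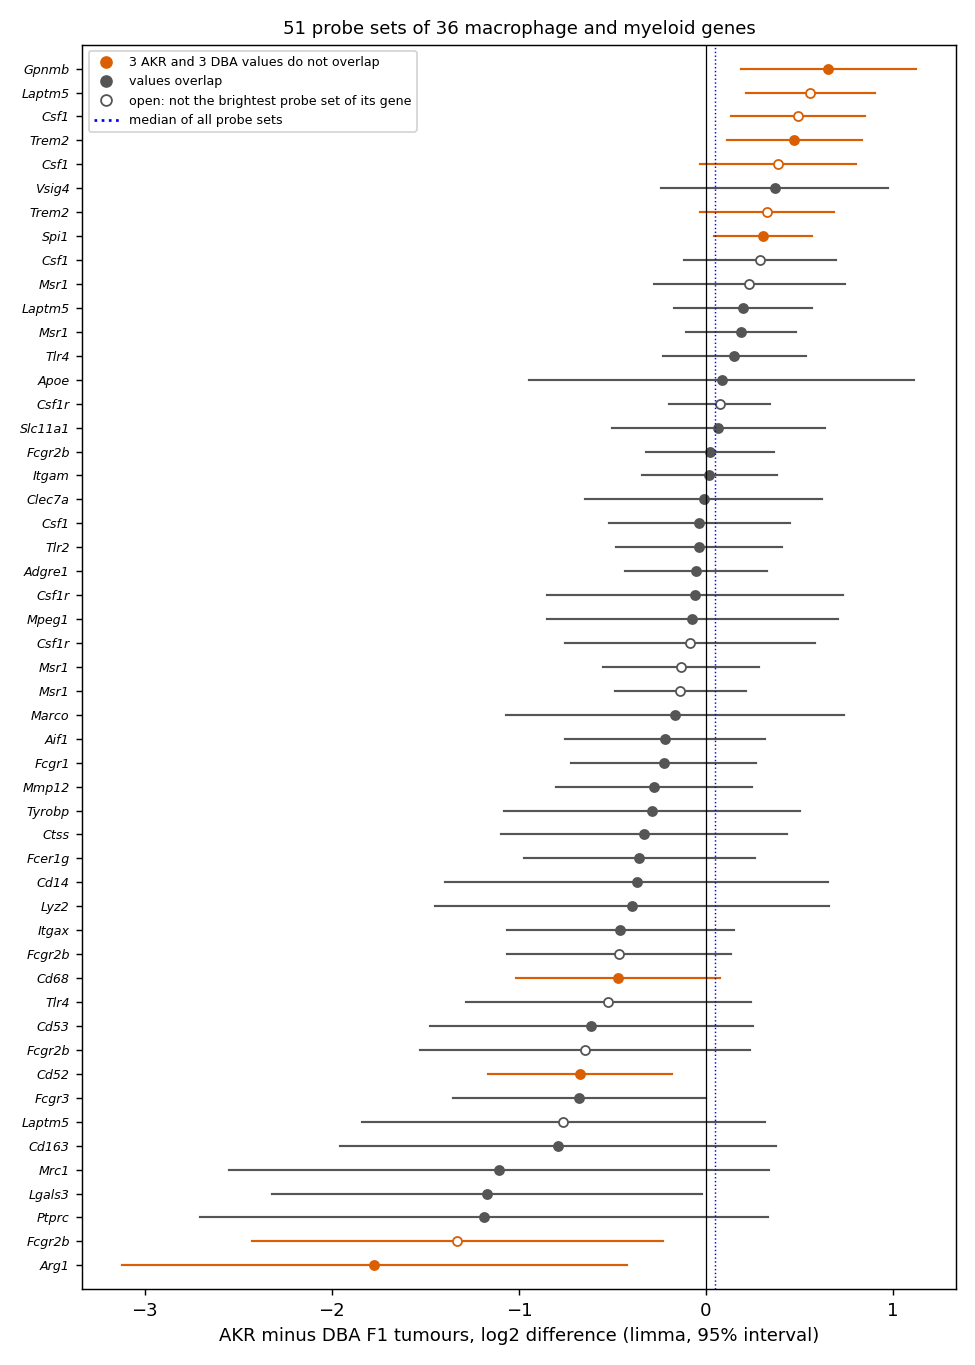
Log2 difference of AKR minus DBA F1 tumours (horizontal axis, limma with 95% interval) for the 51 probe sets of 36 genes, 3 arrays in each cross. Orange marks the 11 probe sets whose values do not overlap between the crosses, open circles probe sets that are not the brightest of their gene, and the dotted line the median of all probe sets (0.05). Arg1 is at the bottom at -1.77 and Gpnmb at the top at 0.65.

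The genes found in leukocytes of all kinds were Ptprc, Cd53, Cd52 and Laptm5. Ptprc encodes CD45, the phosphatase on the surface of all nucleated blood cells. It read 8.66, 6.69 and 8.75 in the AKR cross and 9.83, 8.28 and 9.55 in the DBA cross. AKR replicate 2 stood far below the rest, and DBA replicate 2 lay under both other AKR values, so the crosses overlapped. The difference was -1.19 (SE 0.64, 95% interval -2.70 to 0.33), and -0.51 without AKR replicate 2.

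Cd52, a small anchored glycoprotein of leukocytes, read 8.45, 8.22 and 8.40 in the AKR cross and 9.14, 8.60 and 9.35 in the DBA cross. All 3 DBA values lay above all 3 AKR values, at means of 8.36 ± 0.12 and 9.03 ± 0.39 (SD, n = 3 each). The gap was 1.59-fold, with an adjusted p of 0.132 by limma, so it did not pass. Cd53, a tetraspanin of leukocytes, read 8.52, 7.49 and 8.22 in the AKR cross and 9.01, 8.01 and 9.05 in the DBA cross. Here replicate 2 was the lowest of each cross, and DBA replicate 2 fell among the AKR values.

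Laptm5, a lysosomal membrane protein of blood cells, gave a different answer at each of its 3 probe sets. The brightest read 9.81, 9.34 and 9.56 in the AKR cross and 9.48, 9.25 and 9.39 in the DBA cross, a difference of 0.20. The next read 8.01, 7.11 and 8.52 against 8.95, 7.84 and 9.14, a difference of -0.76, with replicate 2 the lowest of each cross. The dimmest read 8.53, 8.50 and 8.25 in the AKR cross and 7.93, 8.0 and 7.67 in the DBA cross, with all AKR values above all DBA values (0.56, adjusted p = 0.113 by limma). Of the 51 member probe sets this one had the smallest p, yet its neighbour on the same gene lay the other way.

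At their brightest probe sets, the lineage factor Spi1 and the CSF-1 axis had small gaps, of 0.30 at most. Spi1 read 7.40, 7.28 and 7.23 in the AKR cross and 7.01, 7.02 and 6.97 in the DBA cross. All AKR values lay above all DBA values, and the spread was small, at 7.30 ± 0.09 against 7.0 ± 0.03 (SD, n = 3 each). The gap of 0.30 on the log2 scale (1.24-fold, 95% interval 0.04 to 0.57) had an adjusted p of 0.162 by limma and did not pass. Its probe set was dimmer than the median of the array, at percentile 42.4 of mean level. Of all probe sets dimmer than the median, 33.6% were likewise higher in AKR without overlap.

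Csf1r, the receptor that macrophages need to survive, read 10.78, 10.19 and 11.01 in the AKR cross and 11.13, 10.05 and 10.98 in the DBA cross at its brightest probe set. The lowest value of each cross was again replicate 2, and the crosses covered almost the same range. The difference was -0.06 (95% interval -0.85 to 0.73), and it turned to 0.19 with quantile normalization. The remaining Csf1r probe sets differed by -0.08 (0.11 with quantile normalization) and 0.07.

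Csf1 encodes the ligand, which tumour cells and stroma can both make. Its brightest probe set read 9.16, 8.72 and 9.24 in the AKR cross and 8.78, 9.35 and 9.10 in the DBA cross, with full overlap and a difference of -0.04 that turned to 0.11 with quantile normalization. A further probe set read 8.80, 8.72 and 8.75 in the AKR cross and 8.11, 8.55 and 8.14 in the DBA cross. There all AKR values lay above all DBA values (0.49, 95% interval 0.13 to 0.85, adjusted p = 0.132 by limma). The other 2 probe sets of Csf1 differed by 0.39, without overlap, and by 0.29, with overlap. So 3 of 4 Csf1 probe sets lay higher in AKR by mean and the brightest did not.

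**Figure D2:**
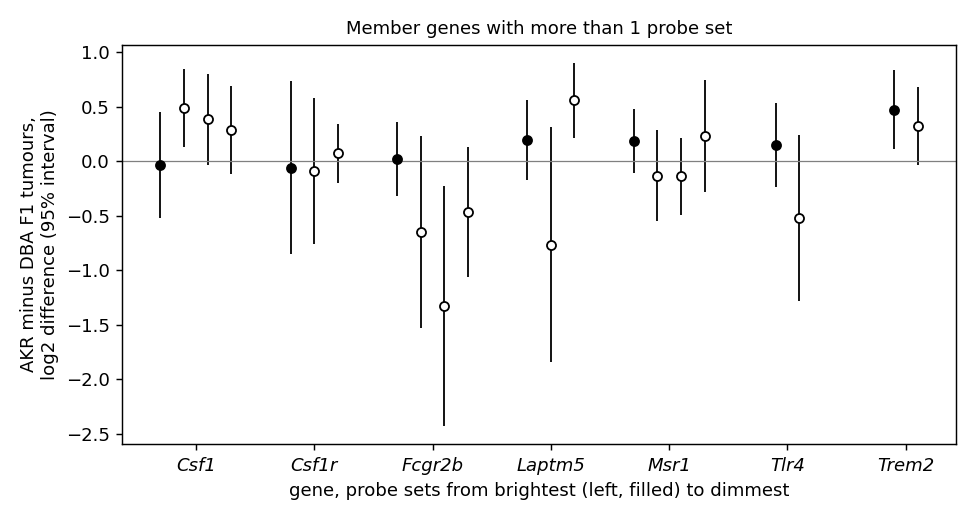
Log2 difference of AKR minus DBA F1 tumours (vertical axis, limma with 95% interval) for the 7 member genes with more than 1 probe set, 3 arrays in each cross. Probe sets run from brightest (filled) to dimmest within a gene. Probe sets lie on both sides of 0 for every gene shown except Trem2.

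Among 15 further probe sets of these 7 genes, 11 had the sign opposite to that of the brightest probe set. They belonged to Fcgr2b, Csf1, Csf1r, Laptm5, Msr1 and Tlr4. Sequence variants of the parental strains under the probes were not tested.

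The surface and lysosomal markers of macrophages overlapped between the crosses at 7 of 8 genes. Overlap was the more common state on the array, since 38.4% of all genes did not overlap. Adgre1 encodes F4/80, the surface protein most used to stain mouse macrophages. It read 8.65, 8.32 and 8.52 in the AKR cross and 8.69, 8.30 and 8.66 in the DBA cross, which is 8.50 ± 0.17 against 8.55 ± 0.22 (SD, n = 3 each). Adgre1 was one of the most even members, with a 95% interval of -0.43 to 0.33 around -0.05, and its sign turned to 0.06 with quantile normalization.

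Cd68, a protein of the lysosome membrane, read 8.49, 7.60 and 8.27 in the AKR cross and 8.62, 8.53 and 8.62 in the DBA cross. It was the 1 gene of this group without overlap, by a margin set by AKR replicate 1 and DBA replicate 2. The difference of -0.47 had an adjusted p of 0.23 by limma and was -0.21 without AKR replicate 2.

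Lyz2, the lysozyme of macrophages and neutrophils, read 11.51, 10.62 and 11.23 in the AKR cross and 12.06, 10.51 and 11.97 in the DBA cross. Its lowest value of all was DBA replicate 2, although DBA replicates 1 and 3 were its highest. Without DBA replicate 2 the difference of -0.40 became -0.90, without DBA replicate 1 it was -0.12, and without AKR replicate 2 it was -0.15. Ctss, the cathepsin that trims the chain bound to class II molecules, read 10.81, 10.31 and 11.16 against 11.15, 10.53 and 11.60, again with replicate 2 the lowest of each cross.

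Mpeg1, a pore-forming protein of phagocytes, read 9.67, 9.09 and 9.99 in the AKR cross and 9.80, 9.07 and 10.11 in the DBA cross. The crosses covered nearly the same range, and the difference was -0.07 (0.13 with quantile normalization). Aif1, a calcium-binding protein of macrophages also called IBA1, read 7.48, 7.26 and 7.49 against 7.73, 7.15 and 8.0. Its DBA values straddled those of AKR.

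The integrin chains Itgax (CD11c) and Itgam (CD11b) pair with CD18 on myeloid cells. Itgax read 8.30, 7.57 and 8.37 in the AKR cross and 8.35, 8.40 and 8.87 in the DBA cross, a difference of -0.46 (-0.20 without AKR replicate 2). Itgam stayed between 5.36 and 5.78 on all 6 arrays, at percentile 14.7 of mean level. At such a level the probe set can lie at background, and its difference of 0.02 turned to -0.15 with quantile normalization.

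**Figure D3:**
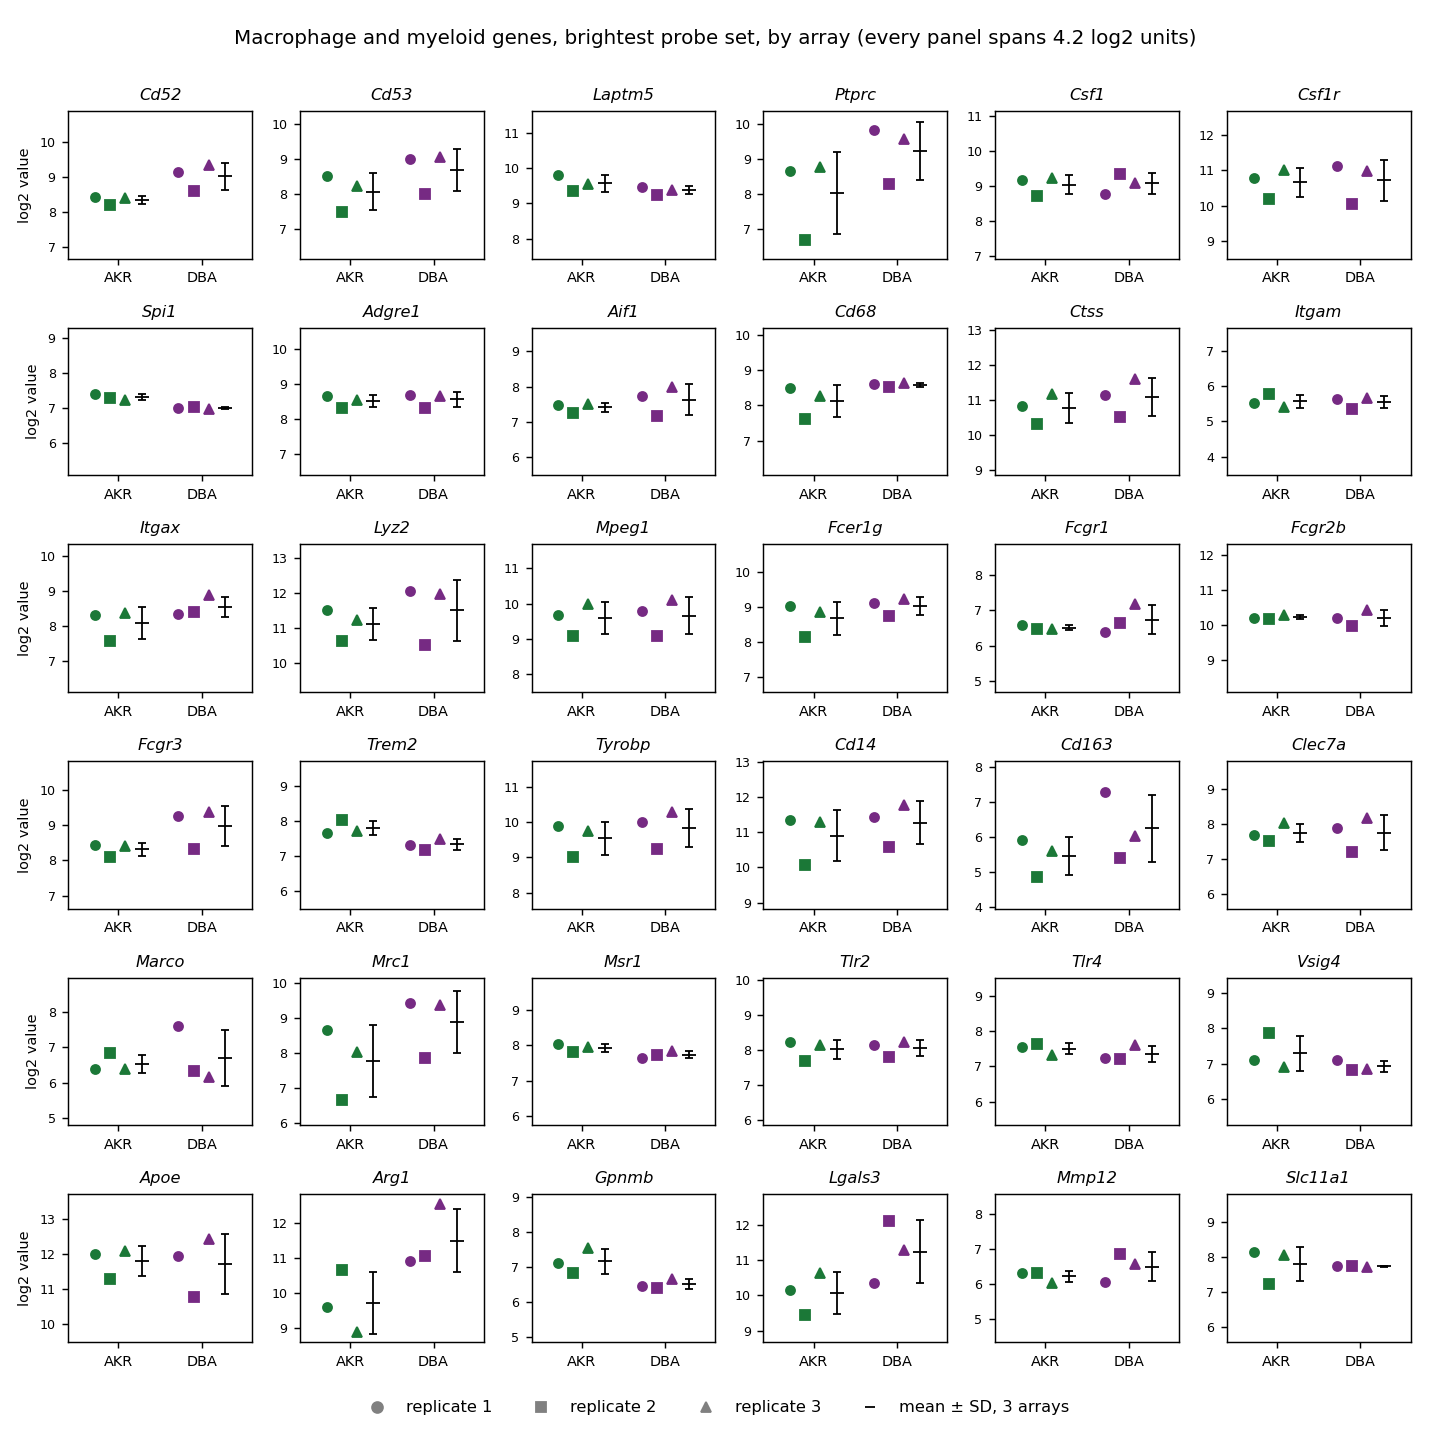
Log2 value (vertical axis) of the brightest probe set of each of the 36 genes on the AKR arrays (green) and DBA arrays (purple), with the shape giving the replicate and the bar the mean ± SD of 3 arrays. Every panel spans the same number of log2 units. In Ptprc, Mrc1, Lyz2 and Csf1r the square (replicate 2) is the lowest of both crosses, and in Arg1 all purple points lie above all green points.

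Fc receptors bind the constant part of antibodies, and the activating ones signal through Fcer1g, a chain with an ITAM motif that recruits the kinase SYK. Tyrobp (DAP12) is a like adaptor, and the lipid-sensing receptor Trem2 signals through it. Tyrobp read 9.89, 9.01 and 9.74 in the AKR cross and 9.99, 9.23 and 10.28 in the DBA cross. Fcer1g read 9.04, 8.14 and 8.86 in the AKR cross and 9.12, 8.75 and 9.23 in the DBA cross. Both adaptors had their lowest value on AKR replicate 2, and the crosses overlapped for both, with differences of -0.29 and -0.36. Without AKR replicate 2 these were -0.02 and -0.09.

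Fcgr3, an activating receptor of low affinity, read 8.44, 8.09 and 8.40 in the AKR cross and 9.27, 8.33 and 9.37 in the DBA cross. DBA replicates 1 and 3 lay above all AKR values, whereas DBA replicate 2 fell among them. The difference was -0.68 (SE 0.28, adjusted p = 0.191 by limma). When each array was left out in turn it ran from -1.01 to -0.49. The -1.01 was the value without DBA replicate 2, with an adjusted p of 0.0911 by limma. Without AKR replicate 2 it was -0.57, and with quantile normalization -0.56. Fcgr1, the receptor of high affinity, was dim, at 6.59, 6.46 and 6.48 against 6.39, 6.64 and 7.18, and its crosses overlapped.

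Fcgr2b, the inhibitory receptor of the family, had 4 probe sets that spread widely. The brightest read 10.22, 10.17 and 10.29 in the AKR cross and 10.21, 9.98 and 10.43 in the DBA cross, a difference of 0.02 that turned to -0.002 when arrays were centred on their median. Another read 8.35, 6.95 and 8.06 in the AKR cross and 9.12, 8.41 and 9.82 in the DBA cross. At that probe set all DBA values lay above all AKR values, 2.51-fold by mean (adjusted p = 0.154 by limma). The remaining probe sets of Fcgr2b differed by -0.65 and -0.46, with overlap. Fcgr2b and Fcgr3 are close relatives, and which of their transcripts each probe set reads was not tested.

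Trem2 lay the other way. Its brighter probe set read 7.67, 8.04 and 7.72 in the AKR cross and 7.33, 7.18 and 7.5 in the DBA cross, and its dimmer one read 7.42, 7.79 and 7.33 against 7.25, 7.11 and 7.20. At both all AKR values lay above all DBA values, with differences of 0.47 (95% interval 0.11 to 0.83, adjusted p = 0.14 by limma) and 0.33. The same held for 23.4% of all probe sets and 33.6% of those dimmer than the median. AKR replicate 2, on which most members were lowest within the cross, was the highest array for Trem2. It was the highest AKR array for 10 of 51 member probe sets, against 38.8% of all probe sets and 58.6% of those dimmer than the median, and the probe sets of Trem2 lay at percentiles 50.5 and 46.1.

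The scavenger, complement and pattern receptors overlapped between the crosses at all 9 genes, whereas 38.4% of all genes did not overlap. Mrc1, the mannose receptor CD206, read 8.66, 6.65 and 8.02 in the AKR cross and 9.42, 7.86 and 9.37 in the DBA cross. Replicate 2 lay lowest in each cross, with values minus the mean of the other 2 arrays of -1.68 in AKR and -1.54 in DBA. The difference between crosses was -1.11 (95% interval -2.55 to 0.34), and -0.55 without AKR replicate 2.

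Cd163, the receptor for haemoglobin bound to haptoglobin, was dim (percentile 18.8) and read 5.90, 4.86 and 5.59 in the AKR cross and 7.27, 5.41 and 6.04 in the DBA cross. DBA replicate 1 alone stood high, and Marco, a scavenger receptor of some tissue macrophages, was highest on the same array (7.60, against 6.17 to 6.84 on the others). Skeletal muscle and adipocyte markers were also highest on DBA replicate 1, and their part in these values was not tested. Without DBA replicate 1 the difference of Marco turned from -0.17 to 0.29, and that of Cd163 went from -0.79 to -0.28.

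Cd14, which passes bacterial lipopolysaccharide to TLR4, read 11.35, 10.07 and 11.29 in the AKR cross and 11.44, 10.59 and 11.79 in the DBA cross. The lowest array of each cross was replicate 2 once more. Clec7a, the beta-glucan receptor dectin-1, had a difference of -0.01 (95% interval -0.64 to 0.62), and Tlr2 had one of -0.04 (-0.48 to 0.41) that turned to 0.004 with quantile normalization.

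Tlr4 differed by 0.15 at its brighter and -0.52 at its dimmer probe set. Msr1, the scavenger receptor of modified lipoproteins, had 4 probe sets whose differences ran from -0.14 to 0.23. Vsig4, a complement receptor of resident macrophages, read 7.11, 7.86 and 6.90 in the AKR cross and 7.10, 6.83 and 6.84 in the DBA cross. For Vsig4 AKR replicate 2 was the array that stood out, upward.

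The effector and lipid-handling genes held the widest gaps in both directions. Arg1, which degrades arginine to ornithine and urea, read 9.60, 10.67 and 8.90 in the AKR cross and 10.91, 11.05 and 12.53 in the DBA cross. All DBA values lay above all AKR values, but the margin between AKR replicate 2 and DBA replicate 1 was small. Means were 9.72 ± 0.89 and 11.50 ± 0.90 (SD, n = 3 each), and the difference of -1.77 (SE 0.57, 95% interval -3.12 to -0.42) had an adjusted p of 0.138 by limma. It ran from -2.25 to -1.26 when each array was left out in turn, and with array weights it was -2.40 and passed (adjusted p = 0.0233 by limma). That setting gave AKR replicate 2 a weight of 0.192 and called 3712 of all 22626 probe sets, against 22 in the main fit. Arg1 did not follow the other members over the arrays, since AKR replicate 2 was its highest AKR value.

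Gpnmb, a glycoprotein of phagocytes that take up lipid or debris, read 7.11, 6.83 and 7.54 in the AKR cross and 6.45, 6.40 and 6.67 in the DBA cross. All AKR values lay above all DBA values, at 7.16 ± 0.35 against 6.50 ± 0.14 (SD, n = 3 each), with an adjusted p of 0.13 by limma. The probe set was dim, at percentile 36 of mean level, and 33.6% of all probe sets dimmer than the median were also higher in AKR without overlap.

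Lgals3, or galectin-3, read 10.16, 9.44 and 10.63 in the AKR cross and 10.34, 12.12 and 11.28 in the DBA cross. The highest array of all was DBA replicate 2, on which most members were lowest within the cross. The difference was -1.17 (95% interval -2.32 to -0.02), 2.25-fold by mean, and DBA replicate 1 fell among the AKR values. Leaving out DBA replicate 2 took it to -0.73, and leaving out DBA replicate 1 took it to -1.62. Apoe, the lipid carrier of macrophages, read 12.01, 11.30 and 12.09 in the AKR cross and 11.95, 10.77 and 12.42 in the DBA cross. It followed the more common pattern, lowest on replicate 2 of each cross, and its difference of 0.08 (-0.94 to 1.11) became -0.39 without DBA replicate 2.

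Slc11a1, a metal transporter of the phagosome also called NRAMP1, read 8.13, 7.24 and 8.05 in the AKR cross and 7.73, 7.75 and 7.73 in the DBA cross. Its DBA values were nearly equal and lay within the AKR range, and without AKR replicate 2 the difference rose from 0.07 to 0.35. Mmp12, the macrophage elastase, was dim and read 6.32, 6.31 and 6.04 against 6.05, 6.87 and 6.58.

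The median of the wider within-cross range was 0.90 for these genes, against 0.49 over all genes. The median size of the difference between the crosses was 0.30, against 0.28 over all genes. A range of single arrays and a difference of means are unlike measures, so each is set only against its own value over all genes. AKR replicate 2 was the lowest AKR array at 37 of 51 member probe sets (72.5%), against 48.7% of all probe sets, and for 28 of 36 genes at their brightest probe set. DBA replicate 2 was the lowest DBA array at 35 of 51 (68.6%), against 34.0% of all probe sets, and for 26 of 36 genes. Brightness matters here: among probe sets brighter than the median the shares were 30 of 35 members (85.7%) against 68.1% of all for AKR replicate 2, and 26 of 35 (74.3%) against 42.1% of all for DBA replicate 2. Both held for 22 of 36 genes, or 61.1%, against 24.9% of all genes. Among genes brighter than the median both held for 19 of 26 members (73.1%), against 35.0% of all such genes. With quantile normalization, a setting chosen after seeing the data, the count was 20 of 36 (55.6%, against 19.9% of all genes). These shares were noticed in these data and are given with no test.

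The median of DBA replicate 2 minus the mean of the other DBA arrays was -0.40 over the 36 genes -0.004 over all genes and -0.05 over genes brighter than the median. For AKR replicate 2 it was -0.48 over the 36 genes, -0.07 over all genes and -0.24 over the brighter genes. The pan-leukocyte genes followed the pattern in 4 of 4 genes, the macrophage surface and lysosomal genes in 6 of 8, the Fc receptors and adaptors in 4 of 6, the scavenger and pattern receptors in 5 of 9, the effector genes in 2 of 6, and the lineage factor and growth factor axis in 1 of 3. Averaged over the 36 genes, the arrays read 8.59, 8.14 and 8.53 in the AKR cross and 8.77, 8.35 and 8.92 in the DBA cross.

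**Figure D4:**
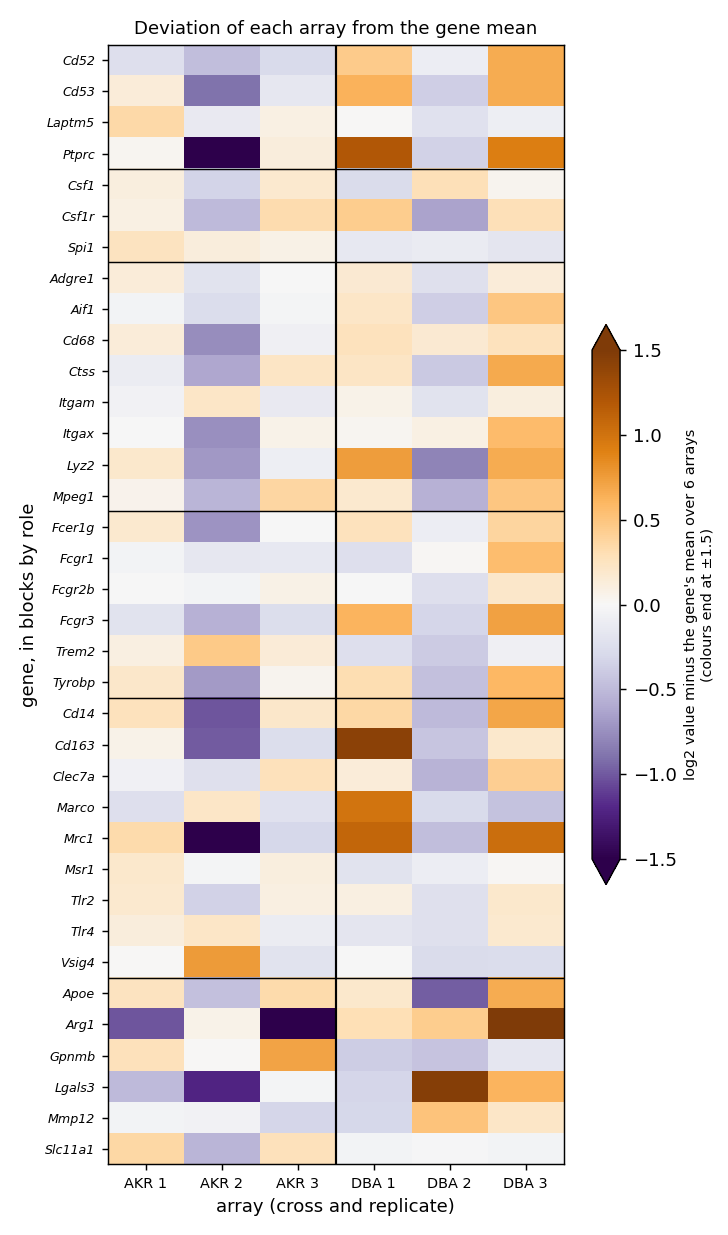
Log2 value of the brightest probe set of each gene minus that gene's mean over the 6 arrays (colour, orange high and purple low), for 36 genes in blocks by role (vertical axis) and 6 arrays (horizontal axis). AKR 2 and DBA 2 are both the lowest of their cross for 22 genes. Arg1, Trem2, Vsig4 and Lgals3 are among those that depart from this.

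Replicate 2 was also the lowest array of each cross in the means of 4 marker lists of other cells: fibroblasts, endothelium, luminal epithelium and mast cells. The array means of 8 fibroblast markers were 10.05, 8.90 and 10.12 in the AKR cross and 10.33, 8.25 and 10.09 in the DBA cross, the deepest dip of the 4 lists. The markers of fibroblasts with the highest readings, Col3a1 and Col1a2, read 10.59 and 10.11 on DBA replicate 2, against 12.41 to 13.10 and 11.88 to 12.55 on the other DBA arrays. The 10 macrophage markers, 7 of which are members, had array means of 9.12, 8.27 and 8.97 in the AKR cross and 9.28, 8.65 and 9.28 in the DBA cross. The 7 endothelial markers had means of 7.91, 7.52 and 7.70 against 7.88, 7.53 and 7.62, the 11 luminal markers 11.17, 10.99 and 11.14 against 10.76, 10.55 and 10.83, and the 8 mast cell markers 7.11, 7.06 and 7.07 against 7.19, 6.81 and 7.15. Markers within a list differed. In the mast cell list Hdc, Tpsb2, Cma1 and Fcer1a were highest on AKR replicate 2 within the AKR cross, whereas Kit, Cpa3 and Ms4a2 were lowest there. In the luminal list Elf3 and Esr1 were highest on that array within the AKR cross. The part of the cells of these lists, or of the arrays as such, in the members' values was not tested.

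The means of the lists of T and NK cells, neutrophils, dendritic cells, and B and plasma cells were lowest on DBA replicate 2 within the DBA cross but highest on AKR replicate 2 within the AKR cross. The 8 measured T and NK cell markers had array means of 7.28, 7.48 and 7.16 in the AKR cross and 7.25, 6.92 and 7.03 in the DBA cross. For 10 neutrophil markers the means were 7.89, 7.95 and 7.81 against 7.97, 7.53 and 7.62, for 6 dendritic cell markers 6.49, 6.83 and 6.41 against 6.52, 6.31 and 6.41, and for 7 B and plasma cell markers 6.53, 6.57 and 6.50 against 7.42, 6.98 and 7.10. Single markers departed from these means. Ltf and S100a8, the neutrophil markers with the highest readings, were lowest on AKR replicate 2 within the AKR cross (11.89 and 7.58). Elane, Mpo, Camp, Ngp, Cxcr2, Csf3r and Mmp8 were highest there. In the B and plasma cell list Pou2af1 was highest on DBA replicate 2 (10.09). Brightness was not matched between these lists, and dim probe sets as a whole read high on AKR replicate 2. The part of these cells in the shared genes Ptprc, Cd53, Cd52, Lyz2 and Itgam was not tested.

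**Figure D5:**
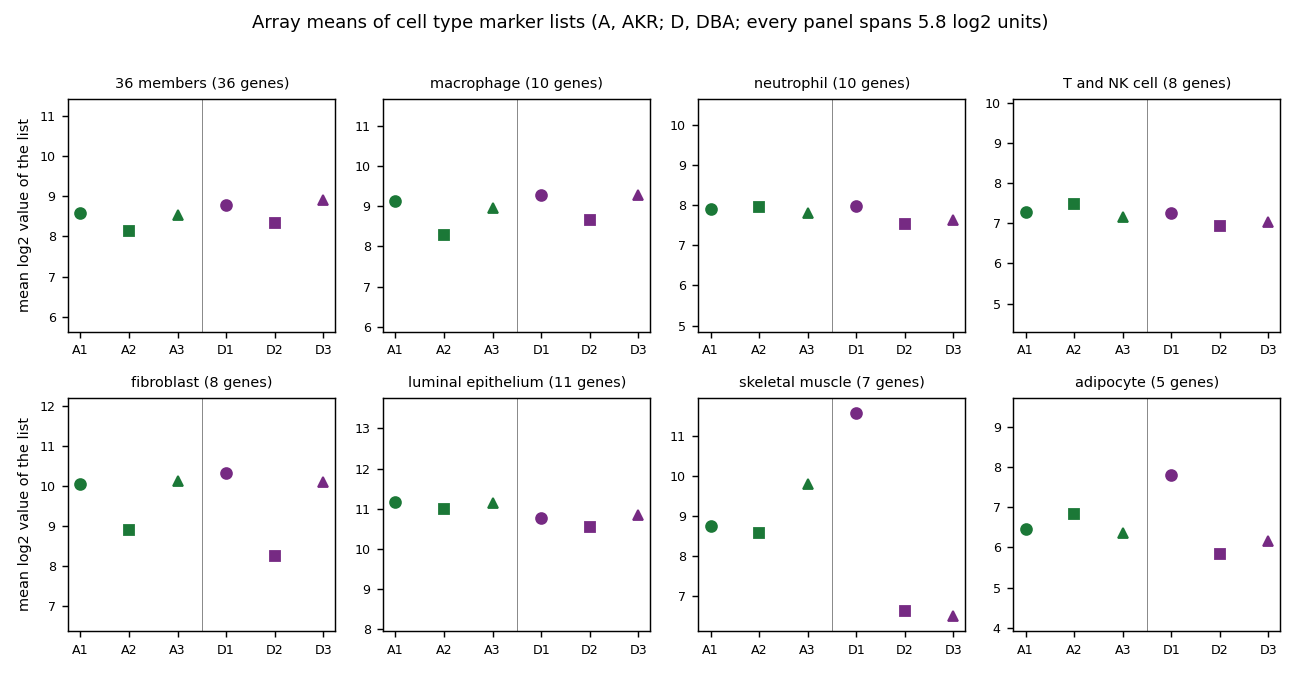
Mean log2 value (vertical axis) of each list at the brightest probe set of its genes on each array (horizontal axis; A, AKR in green; D, DBA in purple; the shape gives the replicate). The 36 members and the macrophage, fibroblast and luminal epithelium lists have replicate 2 (squares) lowest in each cross, as do the endothelial and mast cell lists, which are not drawn, and the skeletal muscle and adipocyte lists are highest on DBA replicate 1.

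Leaving out an array raises the count without overlap in general. Without DBA replicate 2, 28 of 51 member probe sets did not overlap, against 54.3% of all probe sets, with 20 of them higher in DBA (background 23.7%) and 8 higher in AKR F1 tumours (background 30.6%). Since that array was the lowest DBA array for most members, leaving it out shifts them toward DBA by construction, and the direction is no separate result. These 20 included probe sets of Fcgr3, Cd52, Cd53, Lyz2, Mrc1, Ptprc, Cd163, Aif1, Tyrobp and Cd68. None passed, and the smallest adjusted p was 0.0911 by limma, that of Fcgr3. Without AKR replicate 2, 15 of 51 did not overlap (all probe sets 46.4%), of which 11 were higher in AKR (background 29.1%) and 4 higher in DBA F1 tumours (background 17.4%).

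The other genes of the pathway came from 6 lists, which held 125 genes outside the members, 108 of them measured. By limma 0 of 108 passed over all probe sets, 19 had an unadjusted p under 0.05 (all genes 25.2%), and 53 lay higher in the AKR cross and 55 higher in the DBA cross by mean. The values of the crosses did not overlap at 16 genes higher in the AKR cross (all genes 23.2%) and 12 higher in the DBA cross (all genes 15.2%), and neither count exceeds these shares. The median was -0.007, close to the 0.05 of all probe sets.

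Of 17 measured genes of the phagocyte oxidase and the lysosome, 14 lay higher in DBA F1 tumours by mean (median -0.34), against 45.2% of all genes and 61.2% of those brighter than the median. The crosses did not overlap at 6 of the 17, all higher in DBA, against 15.2% of all genes and 22.3% of the brighter ones, and none of the 17 passed in either direction. Cybb, the catalytic subunit of the phagocyte oxidase, read 6.86, 6.72 and 6.87 in the AKR cross and 7.68, 7.19 and 7.91 in the DBA cross. All DBA values of Cybb lay above all AKR values (-0.78, adjusted p = 0.108 by limma). The lysosomal genes Lamp2 (-0.65) and Lgmn (-0.97) also did not overlap, but DBA replicate 2 was the highest or next to highest array for both.

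Of 13 measured kinases and adaptors downstream of Fc receptors outside the members, 10 lay higher in AKR F1 tumours by mean (median 0.11), and none passed. The share was 54.8% of all genes, 38.8% of genes brighter than the median and 72.1% of probe sets dimmer than the median. Brightness was not matched for this list. Pik3cg, a lipid kinase of leukocytes, read 7.91, 7.71 and 8.28 in the AKR cross and 7.34, 6.98 and 7.17 in the DBA cross, without overlap (0.80, adjusted p = 0.0983 by limma). The kinase gene Fgr (0.38) and the adaptor gene Lat2 (0.27) followed in the order of p, and Lat2 overlapped.

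Of 35 further markers of tissue macrophages, 16 lay higher in the AKR cross and 19 higher in the DBA cross by mean (median -0.007), and none passed. Mertk, a receptor for dying cells, read 7.62, 7.31 and 7.79 in the AKR cross and 8.15, 8.32 and 8.39 in the DBA cross. All DBA values of Mertk were above all AKR values, by -0.72 (adjusted p = 0.0953 by limma). Siglec1 (0.43) and Cd300a (0.40) lay the other way, also without overlap.

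Among 9 measured growth factors and receptors outside the members (median 0.08), Flt3 (0.32) and Csf2 (0.52) were higher in AKR and Kitl, the ligand of KIT, was higher in DBA F1 tumours (-1.22), each without overlap, and none passed. Of 12 transcription factors (median 0.10, none passed), Mitf, a regulator of lysosomal and pigment genes, read 7.01, 6.88 and 7.03 in the AKR cross and 7.44, 7.42 and 7.79 in the DBA cross. Runx1 (0.69) and Maf (0.58) lay higher in AKR F1 tumours, with their highest values on AKR replicate 2.

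Products of macrophage activation outside the members were split evenly, 11 of 22 in each direction (median -0.001), and none passed. Tgfb1, a growth factor that many cells make, read 9.08, 8.64 and 9.10 in the AKR cross and 7.63, 8.31 and 7.60 in the DBA cross. All AKR values lay above all DBA values (1.1, adjusted p = 0.0924 by limma). Thbs1 (-0.84) and Mmp9 (0.36) also separated the crosses, in opposite directions. All values in this and the preceding paragraphs on other genes are those of the brightest probe set.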

How the data were processed

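Total RNA of snap-frozen tumours was extracted with Trizol and labelled with biotin, per the labels' protocols. The deposited table holds log2 values for each probe set, 1 array per sample. Per the submitters' processing notes both MAS5 and RMA were involved, and no source used here says which of them made these values, so background subtraction and centring stay unknown. The scale was read from the values, and no detection calls were used. Low values can lie at background.

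The 64 control probe sets were left out. Symbols came from the platform annotation. The crosses were compared by lmFit and eBayes of limma 3.58.1 (R 4.3.3), with two-sided p-values adjusted by Benjamini-Hochberg over 22626 probe sets and a threshold of 0.05, checked on simulated data. Errors given with ± are SDs over 3 arrays. Values in every array were given by role group, and from each list of other genes the 3 with the smallest p were named. Array patterns, and leaving out 2 arrays together, were picked with values in view. The members and lists were chosen with earlier results of these data known. Alternatives were quantile normalization, median centring, bright probe sets only, another prior, array weights (gene by gene, since the REML estimate did not converge), gene means, adjusted p 0.10 and leaving out arrays. Promoters are from RefSeq, GRCm38.p6. Figures were drawn with matplotlib 3.10.9.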

Additional observations from a re-analysis of the deposited data

How the results depend on the processing

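The member count stayed at 0 passing by limma in every setting except array weights. There 6 of 51 member probe sets passed, against 3712 of all 22626 probe sets. These 6 were Csf1 (0.57), Laptm5 (0.63), Gpnmb (0.68) and Spi1 (0.35) higher in AKR, and Arg1 (-2.40) and Cd52 (-0.73) higher in DBA F1 tumours. Those weights ran from 0.192 on AKR replicate 2 to 2.80 on AKR replicate 1. Over all probe sets limma called 22, and 36 with quantile normalization, 102 among bright probe sets, 3712 with array weights, 1 with gene means, 810 at an adjusted p of 0.10 and 1 to 657 when arrays were left out. Member probe sets without overlap numbered 11 of 51 (all probe sets 39.2%), 11 with quantile normalization (all 33.8%) and 12 with centring (all 37.8%). With gene means the count was 6 of 36 (all genes 40.3%). When arrays were left out it ran from 11, as without AKR replicate 1 (all probe sets 45.2%), to 28 without DBA replicate 2 (all 54.3%). Of 51 differences, 34 kept their sign in every setting. With quantile normalization the sign turned for Csf1 (0.11), Csf1r (0.19 and 0.11), Adgre1 (0.0611), Itgam (-0.15), Mpeg1 (0.13) and Tlr2 (0.0038). With centring it turned for Fcgr2b (-0.0025) and Itgam (-0.0046), and with array weights for Fcgr2b (-0.0445), Csf1 (0.11), Itgam (-0.11) and Tlr2 (0.0478). With arrays left out, singly or AKR replicate 2 and DBA replicate 1 together, differences ran from -0.0919 to 0.13 for Fcgr2b, -0.59 to 0.0621 for Tyrobp, -0.18 to 0.12 for Csf1, -0.39 to 0.38 and -0.36 to 0.30 for Csf1r, -0.39 to 0.45 for Apoe, -0.10 to 0.35 for Slc11a1, -0.18 to 0.11 for Adgre1, -0.0855 to 0.0941 for Itgam, -0.90 to 0.12 for Lyz2, -0.37 to 0.25 for Mpeg1, -0.71 to 0.13 for Cd14, -1.20 to 0.0196 for Cd163, -0.28 to 0.20 for Clec7a, -0.43 to 0.29 for Marco, -0.0031 to 0.42 for the dimmest Msr1 probe set and -0.16 to 0.16 for Tlr2. The cause of these changes was not tested. The labels share no replicate numbers between the crosses. No paired analysis was possible because the numbers used here only name samples. Dim probe sets, such as those of Itgam and Cd163 and the dimmest of Msr1, can lie at background, and no detection calls were used.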
